A study of Mus musculus with 6 samples.

Results

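Accessible regions at 4 cell cycle genes, Ccnd1, Cdkn1a, Cdkn2a and Cdkn2b, were followed in NMuMG cells, an established epithelial line from normal mouse mammary gland that carries no engineered allele (wild type). The cells received BRM014 for 6 h, BRM014 for 30 h, or the vehicle DMSO, which the name of its list puts at 30 h. BRM014 inhibits the ATPase subunits of the SWI/SNF complexes, which use ATP to move nucleosomes and open DNA. Open DNA was read out by ATAC-seq, an assay that uses the Tn5 transposase to tag DNA that nucleosomes leave free. Each group had 2 biological replicates, and the authors made 1 list of regions per group from both of them, so no replicate spread could be computed and no test between treatments was made. For 6 h no separate DMSO list was used. All regions were taken that overlapped 3 windows of the mouse build mm9: 230 kb on chromosome 7 from 152010000 to 152240000 for Ccnd1, 130 kb on chromosome 17 from 29170000 to 29300000 for Cdkn1a, and 200 kb on chromosome 4 from 88860000 to 89060000 for Cdkn2a and Cdkn2b. They held 20 of the 25922 regions of the 6 h list, 25 of the 38422 regions of the 30 h list and 31 of the 42310 regions of the DMSO list. The 31 DMSO regions are numbered below by position within their window. No gene annotation of mm9 was used, so regions are named by position and were not assigned to promoters, exons or introns.

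These genes act on one step of the cell cycle, the passage from G1 into S phase. Ccnd1 encodes cyclin D1, which activates the kinases CDK4 and CDK6 to phosphorylate the retinoblastoma protein and so release the E2F factors. The other genes encode brakes on this step. Cdkn1a encodes p21, a kinase inhibitor and a well known target of p53. Cdkn2a encodes p16INK4a, an inhibitor of CDK4 and CDK6, and from a separate first exon p19ARF, which stabilises p53 by inhibiting Mdm2. Cdkn2b encodes p15INK4b, a CDK4 and CDK6 inhibitor that TGFβ induces in epithelial cells. In the order of the RefSeq gene table, Cdkn2a lies between Mtap and Cdkn2b, and Cdkn2b is followed by Dmrta1. In the same order Cdkn1a lies between Srsf3 and Rab44, and Ccnd1 lies between LTO1 and Tpcn2.

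RefSeq promoter sequences on the build GRCm38 matched 3 of the 4 genes, with 5 gene starts, and Ccnd1 had no entry. The upstream sequences that held a searched motif are shown to give the letters before the starts of the 3 inhibitor genes, with matches in capitals. Each is the 250 bases before a gene start, 5′ to 3′ on the gene's strand. They were not placed against the regions, whose coordinates are on the other build.
Cdkn1a, first start (GRCm38 chr17:29090729-29090978, plus strand): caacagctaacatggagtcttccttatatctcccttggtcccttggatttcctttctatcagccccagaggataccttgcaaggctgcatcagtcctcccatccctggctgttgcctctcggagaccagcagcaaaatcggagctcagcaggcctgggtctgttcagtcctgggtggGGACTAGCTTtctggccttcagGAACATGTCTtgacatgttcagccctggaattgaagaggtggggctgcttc
Cdkn1a, second start (GRCm38 chr17:29093519-29093768, plus strand): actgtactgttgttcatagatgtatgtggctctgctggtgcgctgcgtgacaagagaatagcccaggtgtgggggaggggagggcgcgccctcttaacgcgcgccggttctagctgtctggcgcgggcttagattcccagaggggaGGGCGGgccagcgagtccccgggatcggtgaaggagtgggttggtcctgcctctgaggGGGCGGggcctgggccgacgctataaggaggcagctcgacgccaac
Cdkn2a, upstream start (GRCm38 chr4:89294620-89294869, minus strand): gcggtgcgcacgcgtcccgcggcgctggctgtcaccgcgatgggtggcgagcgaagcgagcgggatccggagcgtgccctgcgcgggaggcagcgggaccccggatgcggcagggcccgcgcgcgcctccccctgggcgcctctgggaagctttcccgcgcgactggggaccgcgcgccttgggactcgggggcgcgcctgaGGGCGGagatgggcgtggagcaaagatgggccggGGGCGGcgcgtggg
Cdkn2b (GRCm38 chr4:89311033-89311282, minus strand): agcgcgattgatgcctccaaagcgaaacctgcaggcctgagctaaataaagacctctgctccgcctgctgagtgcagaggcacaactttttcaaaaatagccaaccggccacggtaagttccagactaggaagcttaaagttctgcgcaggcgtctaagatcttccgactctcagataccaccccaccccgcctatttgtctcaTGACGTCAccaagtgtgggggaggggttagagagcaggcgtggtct
Both strands were searched for AP-1 (TGANTCA), CRE (TGACGTCA), the GC box (GGGCGG), the CCAAT box (CCAAT), the E-box (CACGTG), the TATA box (TATAAA) and the p53 half-site consensus, the last chosen after the sequences were read. Before its first start Cdkn1a had 2 matches to the p53 half-site, GGACTAGCTT and GAACATGTCT. At least 1 match was found in 7.13% of the 32851 upstream sequences of the table, and the share with 2 was not counted. Before its second start Cdkn1a had 2 GC boxes, as did the upstream start of Cdkn2a, and 32.7% of all upstream sequences held at least 1. Cdkn2b had a CRE, found in 1.55% of upstream sequences. The downstream start of Cdkn2a held none of these letter strings. Matches describe the letters and show no binding.

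Of the 31 DMSO regions, 13 were not called after 6 h of BRM014 (41.9%, 95% Wilson interval 26.4 to 59.2%), beside 43.6% of all DMSO regions. After 30 h 7 were not called (22.6%, 11.4 to 39.8%), beside 26.1% of all DMSO regions. All 7 were also missing at 6 h, so 7 regions were missing at both times (23.7% of all DMSO regions were), 6 at 6 h only (19.9% of all), 0 at 30 h only (2.33% of all), and 18 were called at both times (54.1% of all). The shares thus lay close to those of the whole list. Counting DMSO regions of score 1000 alone, 7 of 24 were missing at 6 h (29.2%, 14.9 to 49.2%), beside 28.5% of all such DMSO regions. At 30 h the share of the windows was lower than that of the list, with 2 of 24 missing, the same 2 as at both times (8.33%, 2.32 to 25.8%). Of all such DMSO regions 14.1% were missing at 30 h and 12.3% at both times. With only the 25922 strongest regions of every list, 6 of 23 were missing at 6 h (26.1%, 12.5 to 46.5%), beside 23.1% of that DMSO list. A region that was not called was not shown to be closed. The intervals hold only the error of counting, with each region taken as independent, and the spread between repeated DMSO lists could not be measured.

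By window, 4 of 13 DMSO regions at Ccnd1 were missing at 6 h and 2 at 30 h. At Cdkn1a 4 of 7 were missing at 6 h and 2 at 30 h. At Cdkn2a and Cdkn2b 5 of 11 were missing at 6 h and 3 at 30 h. The intervals of the 6 h shares overlap widely, from 12.7 to 57.6% at Ccnd1, 25.0 to 84.2% at Cdkn1a and 21.3 to 72.0% at Cdkn2a and Cdkn2b. New regions were few. Of the 20 regions called at 6 h, 1 had no DMSO region (5%, 0.888 to 23.6%), beside 7.42% of the whole 6 h list. Of the 25 called at 30 h 0 were new (0 to 13.3%), beside 17.9% of the whole 30 h list. Among 30 h regions of score 1000, 0 of 19 were new, beside 4.62% of all such 30 h regions. With only the 25922 strongest regions of every list, 2 of 20 were new at 6 h, beside 22.3% of that list. At 30 h 1 of 20 was new under that setting, beside 19.4%. The 1 region new at 6 h in the full lists lay in the Cdkn2a and Cdkn2b window on chromosome 4 from 89043564 to 89043835. It was 272 bp wide, and had a -log10 q of 19.8, with 4.24% of 6 h regions below it. It was not called at 30 h. The regions covered 7023 bp at 6 h, 7983 bp at 30 h and 10114 bp in DMSO at Ccnd1. At Cdkn1a they covered 2266 bp at 6 h, 3174 bp at 30 h and 4934 bp in DMSO. At Cdkn2a and Cdkn2b they covered 4272 bp at 6 h, 5851 bp at 30 h and 7593 bp in DMSO. The 3 windows together had 13561 bp at 6 h, 17008 bp at 30 h and 22641 bp in DMSO. The whole lists covered 17.9 Mb at 6 h, 25.1 Mb at 30 h and 30.2 Mb in DMSO.

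Strength was compared through the summit pileup, the caller's count of overlapping reads or fragments at the highest point of a region. It was recovered from the authors' fold enrichment (summit over local background) and -log10 p. Whether reads or fragments were counted is not given in the sources used here. The lists differed in depth: by its lowest background, a list reached 63.0% of DMSO depth at 6 h and 80.7% at 30 h. Pileups below are scaled to DMSO depth, and a ratio is the scaled pileup after BRM014 over that in DMSO. Each pileup of a region is that of its highest summit, so a ratio can set different summits side by side. Among the 18 regions still called at 6 h the median ratio was 0.841, from 0.179 to 1.51, beside 0.855 for all DMSO regions called at 6 h, and 12 were below DMSO (66.7%, beside 64.9% of all kept regions). Among the 24 called at 30 h it was 1.02, from 0.272 to 1.34, beside 0.985 for all, and 10 were below DMSO (41.7%, beside 52.1% of all kept regions). A ratio of at most 0.5 was found for 5 of 18 regions at 6 h (27.8%, beside 18.6% of all kept regions) and for 4 of 24 at 30 h (16.7%, beside 9.98%). In these bulk libraries fewer cells with an open region and less opening in every cell cannot be told apart.

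**Figure D1:**
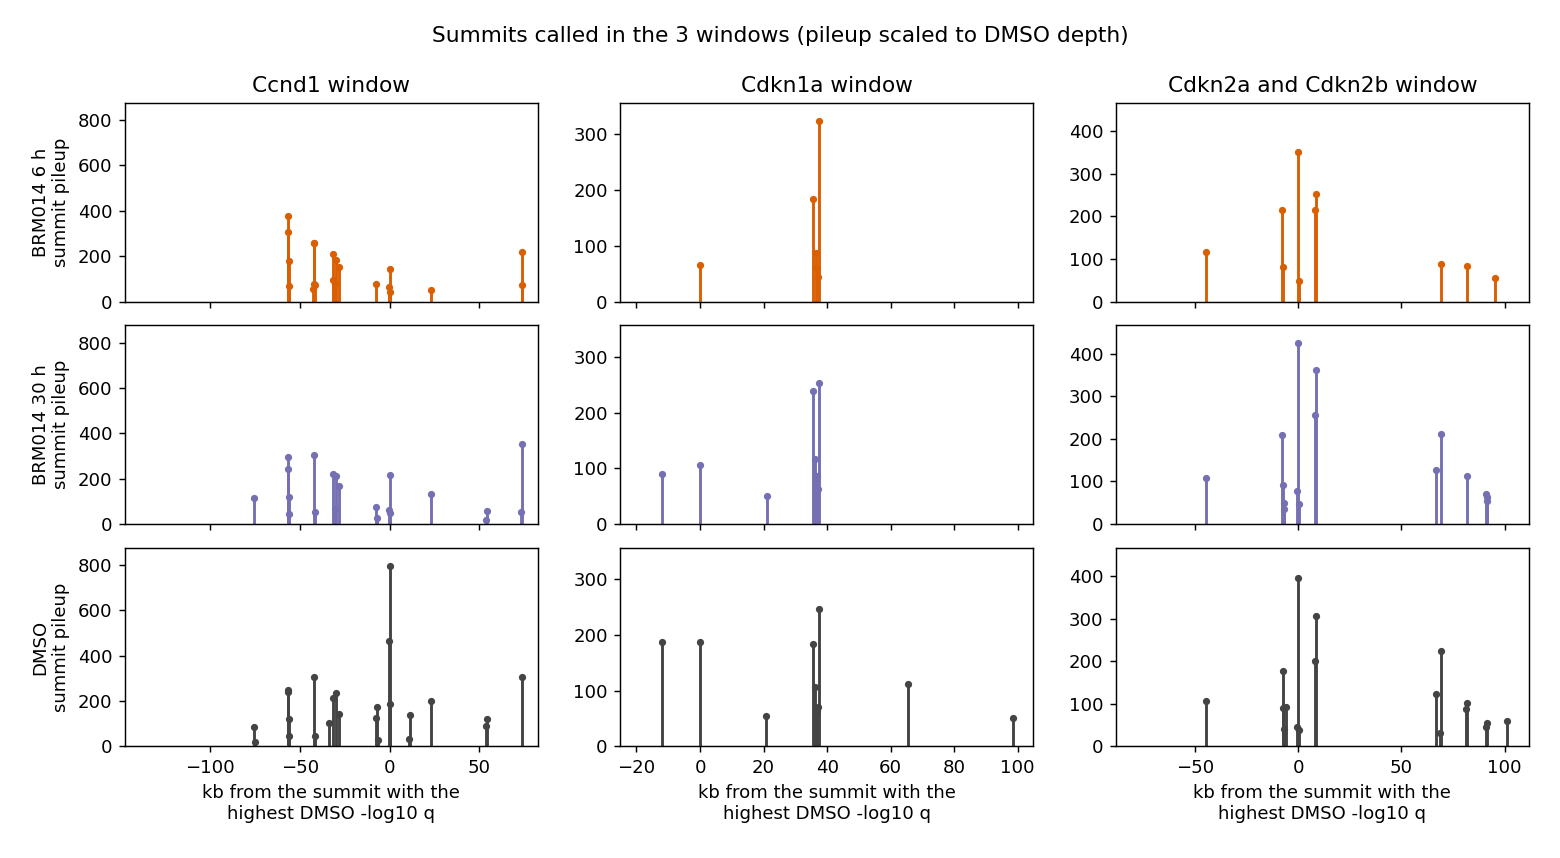
Each line is a summit called in BRM014 6 h (top row), BRM014 30 h (middle row) or DMSO (bottom row), with its pileup scaled to DMSO depth on the vertical axis and its distance in kb from the summit with the highest DMSO -log10 q of the window on the horizontal axis. In the Ccnd1 window the summit of region 9 stood at 143 in BRM014 6 h and 217 in BRM014 30 h, against 796 in DMSO, where it was the tallest, while the tallest summit of the Cdkn2a and Cdkn2b window was at 351, 424 and 395 in BRM014 6 h, BRM014 30 h and DMSO.

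At Ccnd1 the strongest DMSO region was among those with the lowest ratios, and the regions around it had low ratios or were not called. This was region 9, on chromosome 7 from 152156798 to 152158054, 1257 bp wide with 3 summits and a DMSO -log10 q of 607, above 98.8% of DMSO regions. Its summit pileup was 143 at 6 h and 217 at 30 h, against 796 in DMSO. The ratios were 0.179 and 0.272, lower than in all but 1.84% of the 4175 kept regions of the strongest decile of -log10 q at 6 h and all but 3.09% of 4209 at 30 h. Each of its 3 summits had a treated summit within 42 bp. The outer summits had scaled pileups of 63.5 and 42.9 at 6 h, 63.2 and 49.6 at 30 h, and 463 and 188 in DMSO. The authors' fold enrichment of this region did not show the difference in pileup, at 10.8 at 6 h, 15.5 at 30 h and 14.5 in DMSO, while the recovered local background, scaled to DMSO depth, was 11.8 at 6 h and 12.9 at 30 h against 53.9 in DMSO.

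Region 10, on chromosome 7 from 152168377 to 152169207, was the strongest of the regions missing at both times. In DMSO it had 2 summits, a fold enrichment of 18.1, a -log10 q of 125 and a summit pileup of 138. Of all DMSO regions in its decile of -log10 q, 24.0% were missing at 6 h and 9.22% at 30 h. The nearest treated region was 10342 bp away at 6 h and 10399 bp away at 30 h. At the depth of the treated lists a pileup of 86.9 at 6 h and 111 at 30 h would have matched the DMSO value.

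The neighbours on both sides showed lower values too. Region 8, from 152149852 to 152150987, had a pileup of 79.4 at 6 h and 75.6 at 30 h, against 174 in DMSO (ratios 0.456 and 0.434), and its width was 394 bp at 6 h and 789 bp at 30 h, against 1136 bp in DMSO. The strongest of its 3 DMSO summits, at a pileup of 174, had no treated summit within 100 bp at 6 h, and at 30 h stood at 27.3. The treated maxima of 79.4 and 75.6 lay at another of its summits, which had 127 in DMSO. Both ratios of region 8 thus set different summits side by side. They were undercut by 16.1% of the kept regions of its decile at 6 h and by 9.87% at 30 h. Region 11, from 152180002 to 152180629, was at 49.2 at 6 h and 133 at 30 h, against 200 in DMSO. Its ratio of 0.246 at 6 h was undercut by 1.62% of the 3651 kept regions of its decile, and that of 0.663 at 30 h by 27.8% of 4029. Region 12, from 152211041 to 152211859, was not called at 6 h and had a pileup of 59.5 at 30 h, against 123 in DMSO (ratio 0.483). Of its decile 38.6% were missing at 6 h, and its 30 h ratio was undercut by 9.41% of the kept regions there. Regions 8 to 12, a run of 5 neighbours chosen here after their values were seen, were thus each at a ratio below 0.5 or missing at 6 h, and between 0.272 and 0.663 or missing at 30 h. For region 8 this holds for the highest summit of each list, not for a summit at 1 position.

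The rest of the Ccnd1 window stayed closer to DMSO. Region 3, from 152115179 to 152116160, had a pileup of 260 at 6 h and 305 at 30 h, against 305 in DMSO. Regions 5 to 7, which lie within the stretch from 152125499 to 152129602, had ratios of 0.967, 0.787 and 1.06 at 6 h and of 1.02, 0.905 and 1.17 at 30 h. They had low fold enrichments in DMSO, from 5.60 to 7.95, on high local backgrounds from 24.5 to 28.9. Between them and region 3 lay region 4, from 152123463 to 152123710, the narrowest of the 31 at 248 bp, with a DMSO -log10 q of 29.9, which was missing at both times as were 50.9% of its decile. Region 13, from 152230837 to 152231765, had a pileup of 217 at 6 h and 354 at 30 h, against 305 in DMSO. Both regions at the other end were above DMSO where called. Region 2, from 152100567 to 152101551, reached 378 at 6 h and 294 at 30 h, against 250 in DMSO, and its 6 h ratio of 1.51 was above 98.4% of the kept regions of its decile. Its strongest summit by -log10 q was 290 bp away at 6 h and 289 bp away at 30 h, at another of its 4 summits. Region 1, from 152081614 to 152082452, was missing at 6 h and had 114 at 30 h, against 85 in DMSO.

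**Figure D2:**
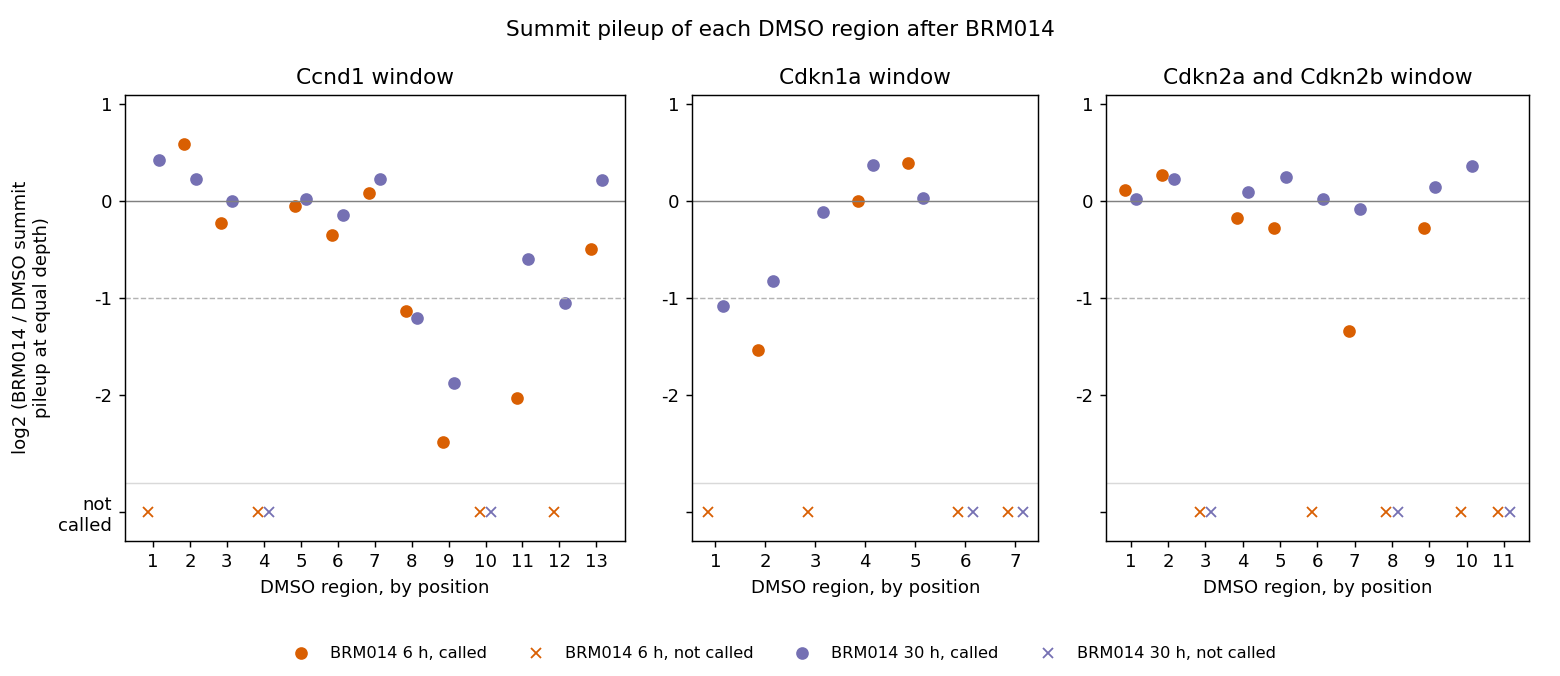
Points give the log2 ratio of the summit pileup after BRM014 at 6 h or 30 h to that in DMSO at equal depth, for each DMSO region by its number in the window, and crosses at the bottom mark regions that were not called. The dashed line is a ratio of 0.5. At 6 h Ccnd1 regions 8, 9 and 11, Cdkn1a region 2 and Cdkn2a and Cdkn2b region 7 lie below it. At 30 h 3 regions lie below it at Ccnd1, 1 at Cdkn1a and 0 at Cdkn2a and Cdkn2b. In the Cdkn2a and Cdkn2b window 4 of the 6 regions called at 6 h lie below the line of equal pileup. Of the 8 called there at 30 h, 7 lie above that line.

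At Cdkn1a an adjacent pair of regions kept its pileup, while at 6 h the regions further out were lower or missing. The grouping into the pair and the outer regions was made after the values were seen. Region 5, on chromosome 17 from 29231290 to 29232703, was the widest of all 31 at 1414 bp and had the most summits, 5. Its summit pileup was 324 at 6 h and 253 at 30 h, against 247 in DMSO, and its main summit was at the same base in all 3 lists. It was the region that split: 2 regions overlapped it at 6 h and 2 at 30 h, as for 0.697% and 1.04% of all DMSO regions. Region 4, from 29230404 to 29230930, lay 359 bp from it and had a pileup of 184 at 6 h, 239 at 30 h and 184 in DMSO. Both ratios of the pair at 6 h, 1.001 and 1.31, were above the median of 0.810 and 0.761 in their deciles.

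Region 2, from 29194894 to 29195675, had the highest -log10 q of the Cdkn1a window in DMSO, 162. Its pileup was 65.1 at 6 h and 107 at 30 h, against 188 in DMSO (ratios 0.346 and 0.567), and its width was 440 bp at 6 h and 538 bp at 30 h, against 782 bp in DMSO. Region 1, from 29182766 to 29183458, was the strongest of the regions missing at 6 h only, with a DMSO -log10 q of 127. Of all DMSO regions in its decile 24.0% were missing at 6 h. At 30 h the pileup of region 1 was 89.2, against 188 in DMSO (ratio 0.474). Region 3, from 29215809 to 29216174, was also missing at 6 h, as were 71.2% of its decile. At 30 h it stood at 50.8, against 55 in DMSO (ratio 0.923). On the other side of the pair, region 6, from 29260298 to 29261013, was missing at both times. It had a DMSO fold enrichment of 18.3, above 78.9% of DMSO regions, a -log10 q of 103 and a pileup of 112. Of its decile 38.6% were missing at 6 h and 17.6% at 30 h, and the nearest treated region was 27431 bp away at 6 h and 27594 bp away at 30 h. Region 7, from 29293254 to 29293689, was missing at both times as well, as were 50.9% of its decile. It was the weakest of the 31 with a -log10 q of 29.1.

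At Cdkn2a and Cdkn2b all 8 regions called at 30 h had pileups near or above those in DMSO, with ratios from 0.946 to 1.28. Region 4, on chromosome 4 from 88947819 to 88948675, was the strongest of this window with a DMSO -log10 q of 392, above 93.5% of DMSO regions. Its pileup was 351 at 6 h and 424 at 30 h, against 395 in DMSO, and its main summit lay within 5 bp of the DMSO summit at both times. Region 5, from 88956386 to 88957227, had a pileup of 252 at 6 h and 362 at 30 h, against 305 in DMSO. Region 2, from 88940297 to 88941508, had 214 at 6 h and 208 at 30 h, against 177 in DMSO. Region 1, from 88903397 to 88904059, carried the highest DMSO fold enrichment of all 31, 24.7, and had a pileup of 116 at 6 h and 109 at 30 h, against 107 in DMSO, with a width of 454 bp at 6 h and 484 bp at 30 h, against 663 bp in DMSO. These 4 regions were thus called at both times with ratios between 0.828 and 1.21 at 6 h.

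The upper part of this window differed more between the times. Region 7, from 89017071 to 89017781, had a pileup of 88.9 at 6 h and 212 at 30 h, against 224 in DMSO, ratios of 0.397 and 0.946. Its neighbour region 6, from 89014780 to 89015253, was missing at 6 h and had 126 at 30 h, against 124 in DMSO. Region 10, from 89038996 to 89040009, was missing at 6 h and had 69.4 at 30 h, against 54 in DMSO, with 3 summits at 30 h and 2 in DMSO. These maxima lay at different summits. Where 30 h had 69.4, DMSO had 46, and where DMSO had 54, 30 h had 64.4. Regions 8 and 9 lay 154 bp apart but differed. Region 8, from 89029015 to 89029642, with a DMSO -log10 q of 56.9, was missing at both times, and the nearest treated region was 158 bp away at 6 h and 152 bp away at 30 h. Region 9, from 89029797 to 89030256, had a pileup of 84.1 at 6 h and 113 at 30 h, against 102 in DMSO. The others missing at both times were region 3, from 88942428 to 88942754, and region 11, from 89049235 to 89049639, with -log10 q of 42.5 and 44.8. At -log10 q of that strength 39.5% of all DMSO regions were missing at both times. None of the 3 regions missing at both times in this window had a -log10 q above 56.9, whereas at Ccnd1 and Cdkn1a regions 10 and 6 were missing at 125 and 103.

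Across the 3 windows the regions missing at both times were mostly weak in DMSO. Their -log10 q had a median of 44.8, from 29.1 to 125, and their width a median of 436 bp. The 6 missing at 6 h only had a median of 73.4, from 38.3 to 127, and the 18 called at both times one of 161, from 56.9 to 607, with a median width of 812 bp. The whole list showed the same order, with medians of 40.7, 59.4 and 169. The DMSO regions of the windows had a median -log10 q of 116, beside 91.7 in the whole list, and a median width of 711 bp, beside 677 bp.

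**Figure D3:**
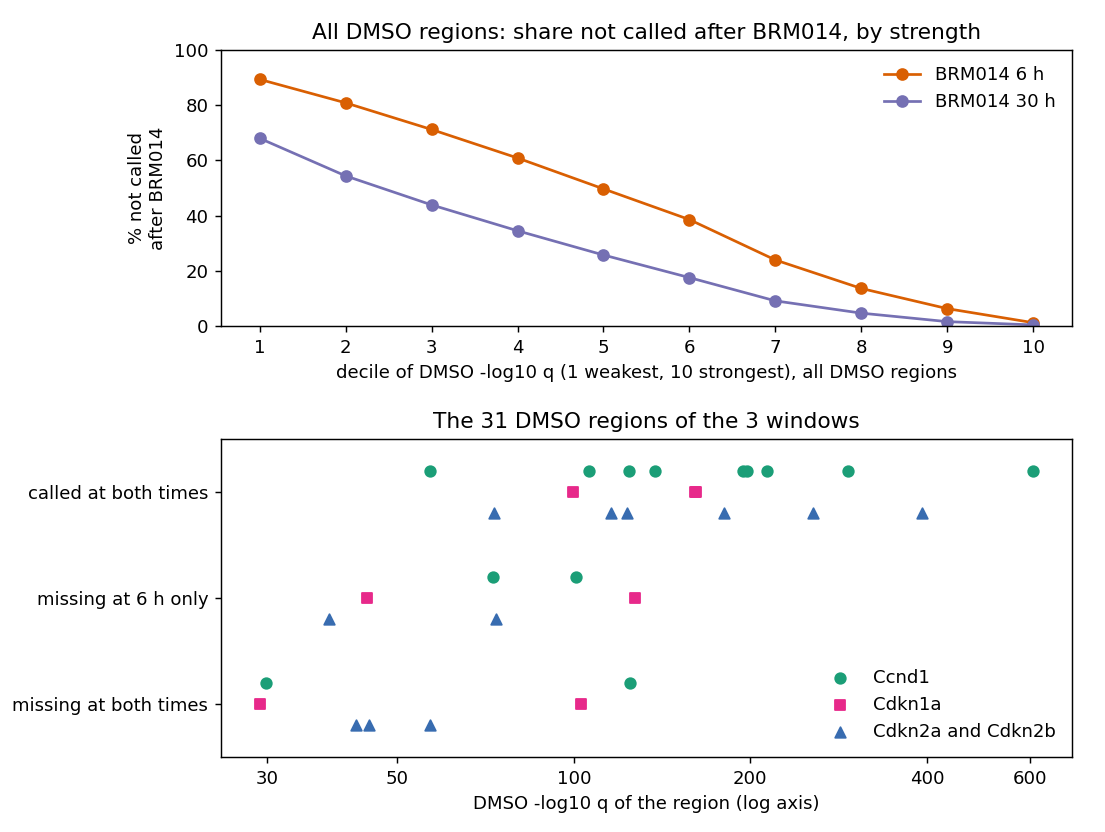
The upper panel gives the percentage of all DMSO regions not called after BRM014 at 6 h or 30 h by decile of DMSO -log10 q, from 89.3% and 68.0% in the weakest to 1.32% and 0.520% in the strongest decile. The lower panel places the 31 DMSO regions of the windows by their DMSO -log10 q (log axis) in 3 classes, and shows that 2 of the 7 regions missing at both times, 1 at Ccnd1 and 1 at Cdkn1a, had a -log10 q above 100.

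Regions that were kept were mostly narrower, with 15 of 18 narrower at 6 h (83.3%, beside 75.2% of all kept regions) and 16 of 24 at 30 h (66.7%, the same as the 66.7% of all kept regions). The median ratio of widths to DMSO was 0.937 at 6 h and 0.945 at 30 h, beside 0.914 and 0.952 for all kept regions. Of the 53 DMSO summits in the windows, 24 had no treated summit within 100 bp at 6 h (45.3%, beside 47.6% of all DMSO summits) and 11 at 30 h (20.8%, beside 32.0%). At 30 h the unmatched summits were 5 of 24 at Ccnd1, 2 of 11 at Cdkn1a and 4 of 18 at Cdkn2a and Cdkn2b.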

How the data were processed

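ATAC-seq was done on 6 NMuMG samples in 3 groups of 2. Per the submitters' processing notes, MACS2 2.1.2 was used, on the build mm9, and per the series' design text both replicates of a group went into its deposited list. Not given in the sources used here were the aligner, read filters, transposase shift and caller options. The authors deposited, per entry, a score from 540 to 1000, the fold enrichment as a ratio, -log10 p, -log10 q and a summit offset. Read totals were not analysed here.

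Overlapping entries were merged into regions with the highest value of their entries. A region was called after treatment if it overlapped a treated region by at least 1 bp. For each entry a whole-number pileup and its background were solved, assuming fold enrichment is pileup plus 1 over background plus 1 and a Poisson p. They matched the deposited -log10 p within 0.001 for 100% of entries. Depth was taken from the lowest background of each list, 2.12 at 6 h, 2.72 at 30 h and 3.37 in DMSO, and all scaled pileups rest on that. Deciles of -log10 q were formed within the DMSO list. Solver and overlap steps were tested on simulated data, in Python 3.11.15 with pandas 2.3.3 and scipy 1.17.1.

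The genes, windows and lists of tests were chosen with earlier results of these data known. Named with full values were, by rule, the 4 strongest DMSO regions by -log10 q of each window, the 3 strongest of those missing at both times and at 6 h only, and the strongest new regions; the remaining regions are described because the windows are small. The planned count at other cell cycle genes was not made, since the gene and promoter tables are on GRCm38 and coordinates were not converted. Alternatives covered the overlap rule, merging, score, -log10 q, list length, window limits and depth measure.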

Additional observations from a re-analysis of the deposited data

How the results depend on the processing

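Of 90 recomputed values, 81 stayed within the 95% interval of the value reported and 9 moved outside it. The setting of a -log10 q of at least 5 could move no value, since the lowest region of the windows had 15.8. The intervals of single windows are wide, such as 25.0 to 84.2% at Cdkn1a at 6 h, so few values could leave them. Among regions at a score of 1000, 8.33% of DMSO regions of the 3 windows were missing at 30 h and 8.33% at both times (14.1% and 12.3% of all such DMSO regions), 0% of 6 h regions were new (0.903% of all), and 14.3% of Cdkn2a and Cdkn2b regions were missing at 6 h and 0% at 30 h (28.5% and 14.1% of all). With 25922 regions in every list, 26.1% of the DMSO regions were missing at 6 h, and at Cdkn2a and Cdkn2b 14.3% at 6 h and 0% at 30 h (23.1% and 19.9% of that DMSO list). The setting of equal list length removes regions of low -log10 q by construction. The score did not strictly follow -log10 q. Cdkn1a region 3 scored 1000 at a -log10 q of 44.3, and Ccnd1 region 7 scored 823 at 56.9. What the score measures was not examined here. With each window narrowed to its central 50%, 0% of 6 h regions were new, because the 1 new region lay outside. With median backgrounds as the depth measure the median pileup ratio was 0.825 at 6 h and 1.03 at 30 h, and 5 and 4 regions again had ratios of at most 0.5. The regions at Ccnd1 and Cdkn1a missing at both times with -log10 q of 125 and 103 scored 1000. No paired analysis was possible because both replicates of a group share 1 list, so no replicate was left out in turn either. The lists differ in depth: scaled to 6 h depth, the 13 regions missing at 6 h would have had pileups from 32.1 to 118. The lowest pileup of a region called in the windows at 6 h was 31, at Ccnd1 region 11 on a local background of 2.745. It is no limit for regions on higher backgrounds, such as the missing Ccnd1 region 4 with 24.8 in DMSO. The part of depth in the missing calls was not tested.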

Other observations

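The recovered local background, the level against which the caller set a summit, differed along the windows. It was solved from the same entry as the pileup, so it is not a separate measurement. Whether it holds signal of the region itself was not tested. Scaled to DMSO depth, it was 35.0 at 6 h and 28.3 at 30 h, against 28.9 in DMSO, at Ccnd1 region 5, and 5.57 at 6 h and 4.01 at 30 h, against 10.98 in DMSO, at Ccnd1 region 8. At the pair of Cdkn1a regions 4 and 5 it was 20.5 at 6 h, 21.8 and 22.0 at 30 h, and 21.8 and 22.1 in DMSO, whereas at Cdkn1a region 2 it was 4.33 at 6 h and 6.11 at 30 h, against 10.0 in DMSO. At Cdkn2a and Cdkn2b region 7 it was 7.10 at 6 h and 13.7 at 30 h, against 13.7 in DMSO. These values were looked at after the pileups were known, and how the caller set its background is not given in the sources used here.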
